A study of Mus musculus with 6 samples.

Results

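The MS4A gene cluster of the mouse was examined in leukaemia cells driven by BCR-ABL1, the fusion kinase of Philadelphia chromosome-positive disease. The members were the 8 genes Ms4a2, Ms4a4b, Ms4a4c, Ms4a4d, Ms4a6b, Ms4a6c, Ms4a6d and Ms4a7, read by every probe set annotated to exactly 1 of these symbols. They are 8 of 18193 genes measured, and 16 probe sets of 45037, of which 3 read Ms4a6d, 1 reads Ms4a4d and 2 read each of the other 6 genes. No probe set carried a member symbol beside another symbol. Ms4a1 was left out by the rule.

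The leukaemias of one genotype lacked activation-induced cytidine deaminase (AID-/-), and those of the other carried the intact gene (AID+/+). Each group had 3 arrays, all labelled as Balb/c leukaemia cells. AID is the mutator of activated B cells, which turns cytosine into uracil in the DNA of antibody genes. Age, treatment, culture conditions and the way BCR-ABL1 was introduced are not given in the sources used here. The titles call the arrays biological replicates without naming animals, so the spread between arrays may be technical. The genotype labels were not checked on the targeted gene here.

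MS4A genes encode membrane proteins related to CD20 that cross the membrane several times. Many lie side by side in tandem and are expressed in distinct haematopoietic cells. Ms4a2 is the beta chain of the high-affinity IgE receptor of mast cells and basophils, Ms4a4b and Ms4a6b are known from T cells, and Ms4a6d and Ms4a7 from macrophages. The best known member of the family in B-lineage cells is CD20.

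In the AID-/- leukaemias, Ms4a6b at both probe sets and Ms4a6c at its brighter probe set stood well above their level in the AID+/+ leukaemias. The other probe set of Ms4a6c and most other members were dim and close between the groups. The members were chosen from measured values of these same arrays, with the difference between the groups known, so their differences are given as a description and without p-values. In the RefSeq table of the GRCm38.p6 assembly all 8 lie on chromosome 19. Ms4a6c and Ms4a6b are separated there by a single protein-coding gene, Gm8369.

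Promoter windows of RefSeq, reaching from 250 bases before to 50 bases after the start of a gene, were listed for 7 of the 8 members and held 8 starts, a pair of them for Ms4a7. The windows of Ms4a6b and Ms4a6c are shown because these are the members with a probe set at least 1 log2 unit higher in the AID-/- leukaemias. They lie on the plus strand of GRCm38.p6 at chr19:11518309-11518608 for Ms4a6b and chr19:11469118-11469417 for Ms4a6c. Capitals mark runs of at least 12 bases that also stand, letter for letter, in the other window.
Ms4a6b: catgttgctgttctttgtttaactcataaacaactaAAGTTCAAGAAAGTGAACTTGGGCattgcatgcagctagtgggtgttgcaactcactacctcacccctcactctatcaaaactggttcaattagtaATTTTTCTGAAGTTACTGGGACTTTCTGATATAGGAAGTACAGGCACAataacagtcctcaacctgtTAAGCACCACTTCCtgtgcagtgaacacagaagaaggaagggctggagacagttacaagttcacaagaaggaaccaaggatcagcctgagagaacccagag
Ms4a6c: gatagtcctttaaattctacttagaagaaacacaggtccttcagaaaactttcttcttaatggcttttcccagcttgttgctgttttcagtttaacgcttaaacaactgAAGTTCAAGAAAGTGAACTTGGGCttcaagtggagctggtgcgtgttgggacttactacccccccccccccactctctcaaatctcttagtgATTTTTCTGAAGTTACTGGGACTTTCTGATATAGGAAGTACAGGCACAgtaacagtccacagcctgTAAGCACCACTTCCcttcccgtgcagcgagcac

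Of the 300 bases of each window, 86 lay in such shared runs, and the longest run held 48 bases. A global alignment paired 225 bases, of which 192 were identical, or 85.3%. The windows of Ms4a4b and Ms4a4c were also alike, with 81.9% of 281 paired bases identical and a longest shared run of 20 bases. The other 26 pairs of member windows had 56.3% to 68.1% identical bases and longest shared runs of 6 to 13 bases. Expression differed (AID-/- minus AID+/+, log2) by 3.90 and 2.69 at the probe sets of Ms4a6b, and by 2.67 and -0.09 at those of Ms4a6c. For Ms4a4b the differences were 0.04 and 0.75, and for Ms4a4c 0.02 and 0.54. A link between the likeness of windows and expression was not tested.

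Motifs were searched on both strands by their letters. GAAANNGAAA, the core of the interferon-stimulated response element, was found in 0 of the 8 member windows, against 3.44% of 32851 promoter windows. TTCNNNGAA, the gamma-activated sequence bound by STAT proteins, was likewise found in 0 of 8, against 8.30% of all windows. GAGGAA, a core bound by the ETS factor PU.1, stood in the windows of Ms4a4b, Ms4a4c and Ms4a7 and in 28.3% of all windows. These counts describe letters in the windows and say nothing on the binding of a factor.

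Values are RMA expression on the log2 scale, on which a difference of 1 is a 2-fold difference. The arrays ran from 2.15 to 14.33, and the mean of the median probe set was 4.89. Detection calls were not used, which leaves a dim probe set without a verdict on absence, and levels of different probe sets cannot be set against each other. Of the 16 member probe sets, 13 had a mean at or below that of the median probe set. The exceptions were single probe sets of Ms4a6b, Ms4a6c and Ms4a4c. In bulk RNA, fewer cells of a type and less RNA per cell cannot be told apart.

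**Figure D1:**
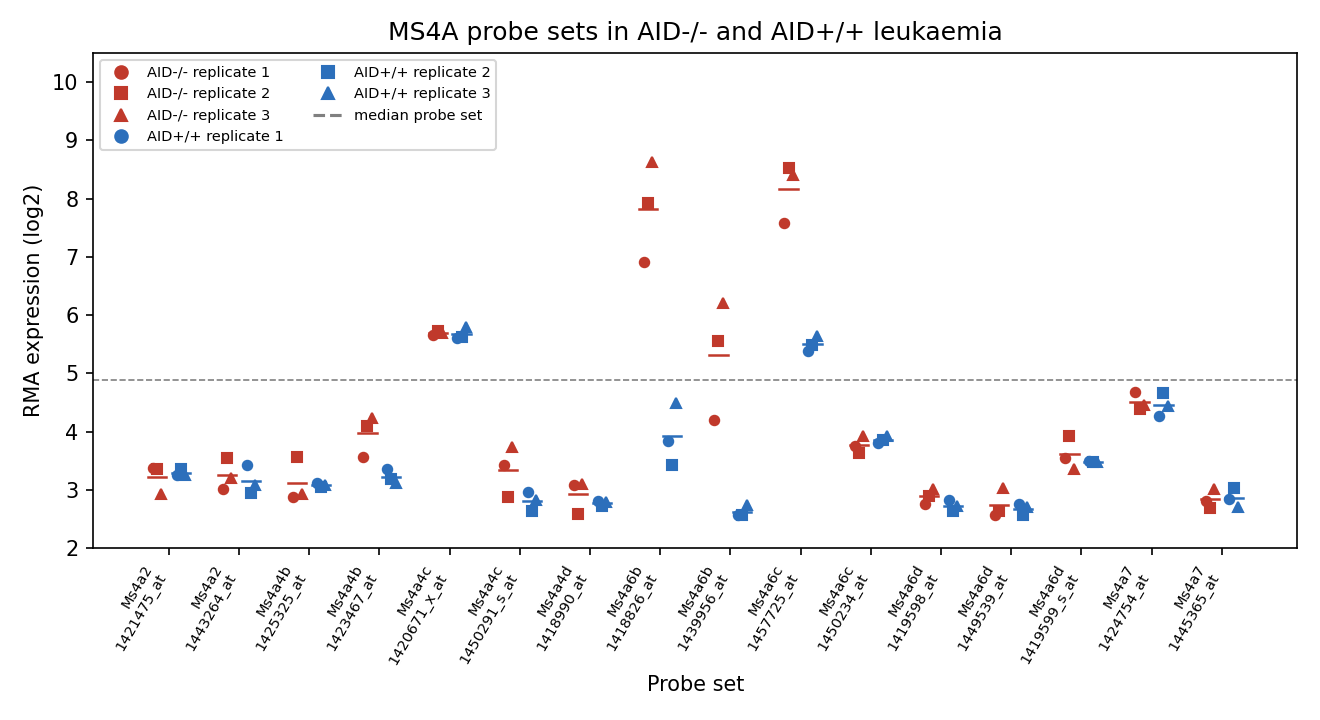
RMA expression (log2, vertical axis) of the 16 MS4A probe sets, with AID-/- arrays in red at the left and AID+/+ arrays in blue at the right of each position. Symbols mark the 3 replicates, short lines the group means and the dashed line the median probe set at 4.89. Both probe sets of Ms4a6b and the bright probe set of Ms4a6c stand apart, and most others lie below the dashed line with overlapping groups.

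Ms4a6b, which in mouse T cells takes part in co-stimulation, was read by a pair of probe sets that were both higher in AID-/- leukaemia. At 1418826_at the AID-/- arrays had 6.91, 7.93 and 8.62 in replicates 1, 2 and 3, against 3.84, 3.42 and 4.49 in the AID+/+ arrays. At 1439956_at they had 4.19, 5.56 and 6.21, against 2.57, 2.57 and 2.74 in AID+/+ leukaemia. The groups did not overlap at either probe set, and the gap between the lowest AID-/- and the highest AID+/+ array was 2.42 and 1.44.

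The means of 1418826_at were 7.82 ± 0.86 over the AID-/- arrays and 3.92 ± 0.54 over the AID+/+ arrays (SD, n = 3 each). The difference was 3.90 with a moderated standard error (SE) of 0.42, or 15.0-fold. At 1439956_at the means were 5.32 ± 1.03 over the AID-/- arrays and 2.62 ± 0.10 over the AID+/+ arrays (SD, n = 3 each), a difference of 2.69 (SE 0.42), or 6.47-fold. The AID+/+ values at 1439956_at lay near the lower end of the scale, and those at 1418826_at were all below the median probe set (4.89). Low array values say little about the amount of RNA, so the sizes at both probe sets are approximate. Replicate 1 was the lowest AID-/- array at both probe sets and replicate 3 the highest.

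Ms4a6c, a relative of Ms4a6b with a similar promoter window as shown above, had probe sets that disagreed. At 1457725_at the AID-/- arrays had 7.58, 8.52 and 8.41, against 5.38, 5.49 and 5.64 in the AID+/+ arrays. The groups were separated by a gap of 1.94. The means were 8.17 ± 0.51 over the AID-/- arrays and 5.50 ± 0.13 over the AID+/+ arrays (SD, n = 3 each), a difference of 2.67 (SE 0.23), or 6.36-fold.

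At its other probe set, 1450234_at, the AID-/- arrays had 3.75, 3.63 and 3.93, against 3.80, 3.85 and 3.93 in the AID+/+ arrays. These groups overlapped, and the difference was -0.09 (SE 0.11). Averaged over both probe sets, Ms4a6c differed by 1.29 (SE 0.14) and Ms4a6b by 3.30 (SE 0.42). Members of this family resemble each other, and whether the probes of a set also bind transcripts of another member was not tested.

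Ms4a6d, the remaining member of the 6 subgroup, had 3 probe sets with overlapping groups. At 1419598_at the AID-/- arrays had 2.76, 2.89 and 3.02, against 2.83, 2.63 and 2.72 in the AID+/+ arrays. The differences were 0.16 (SE 0.10), 0.07 (SE 0.14) and 0.13 (SE 0.14), all at levels near the lower end of the scale.

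Ms4a4b, also named Chandra and known to modulate T cell activation, differed at 1 of its 2 probe sets. At 1423467_at the AID-/- arrays had 3.57, 4.10 and 4.24, against 3.36, 3.19 and 3.12 in the AID+/+ arrays. The groups did not overlap, but the gap between them was only 0.22. The difference was 0.75 (SE 0.17) at levels near the lower end of the scale, and at 1425325_at it was 0.04 (SE 0.17). This was the largest difference among the members below 1 log2 unit, and the smallest above that size was the 2.67 of Ms4a6c.

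Ms4a4c had a difference of 0.54 (SE 0.20) at 1450291_s_at, where the AID-/- arrays had 3.43, 2.88 and 3.73, against 2.97, 2.63 and 2.83 in the AID+/+ arrays. AID-/- replicate 2 fell below AID+/+ replicate 1 there, so the groups overlapped. At 1420671_x_at, the brighter probe set, the means were 5.69 ± 0.03 over the AID-/- arrays and 5.67 ± 0.10 over the AID+/+ arrays (SD, n = 3 each). Ms4a4d had 3.09, 2.58 and 3.10 in the AID-/- arrays, against 2.81, 2.72 and 2.79 in the AID+/+ arrays, with a difference of 0.16 (SE 0.15).

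Ms4a2 was dim in both groups. At 1421475_at the AID-/- arrays had 3.37, 3.35 and 2.92, against 3.25, 3.36 and 3.25 in the AID+/+ arrays. The differences of its probe sets were -0.08 (SE 0.13) and 0.10 (SE 0.17). Its partner chain Fcer1a, which binds IgE, was also dim, with means of 2.88 ± 0.16 for the AID-/- and 2.96 ± 0.15 for the AID+/+ arrays (SD, n = 3 each).

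Ms4a7 had 4.68, 4.38 and 4.45 at 1424754_at in the AID-/- arrays, against 4.27, 4.67 and 4.44 in the AID+/+ arrays. Its differences were 0.04 (SE 0.13) and -0.03 (SE 0.12), and the groups overlapped at both probe sets.

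Across the 16 probe sets, 3 were at least 1 log2 unit higher and 0 were at least 1 log2 unit lower in AID-/- leukaemia, where 2.46% of all probe sets were that much higher, 1.77% that much lower and 4.23% either. The groups did not overlap at 4 member probe sets, all higher in AID-/- leukaemia, where 14.2% of all probe sets stood apart with the AID-/- arrays higher and 18.7% with them lower. Since the members were chosen with this contrast known, nothing is read from these shares. The differences of 11 member probe sets were within 0.2 log2 units of 0, from -0.09 to 0.16. The median difference over members was 0.114, against -0.039 over all probe sets. When AID-/- replicate 2 was omitted, the groups were apart at 7 member probe sets, of which Ms4a4b at 1425325_at was the lower 1. Leaving out an array cannot lower this number. The share over all probe sets was not counted in that setting, so nothing is read from the rise.

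**Figure D2:**
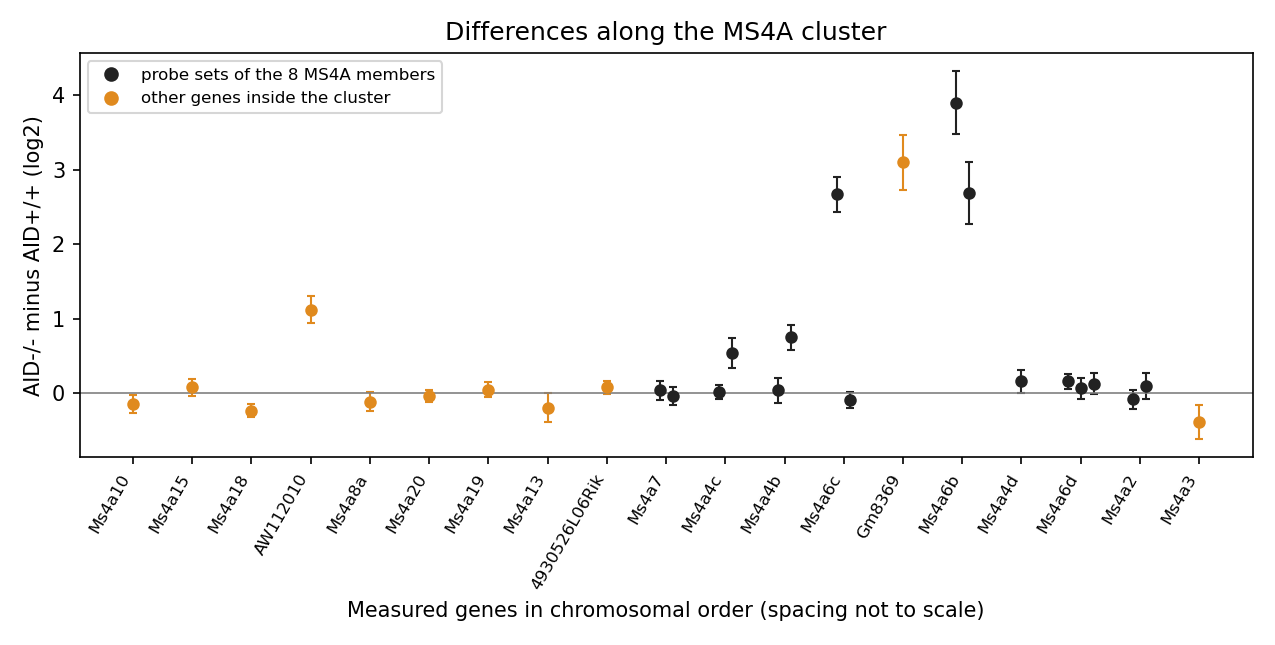
Difference between AID-/- and AID+/+ leukaemia (AID-/- minus AID+/+, log2, vertical axis) for measured genes in their order along the chromosome, with bars for the moderated SE. Black points are probe sets of the 8 members and orange points are other genes inside the cluster at their brightest probe set. The high points from 2.67 to 3.90 belong to 1 probe set of Ms4a6c, to Gm8369 and to both probe sets of Ms4a6b, and the other Ms4a6c probe set lies at -0.09.

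Genes around the members were taken by position. The list held 11 measured genes of the stretch from Ms4a10 to Ms4a3, the outermost MS4A genes, that are no members, and 10 measured genes on either side. Differences were fitted with limma across all 18193 genes, each read by its brightest probe set, and called at an adjusted p under 0.05. In AID-/- leukaemia 4 of the 31 neighbours rose, none fell and 27 did not pass, where 10.1% of all genes were called higher and 8.42% lower. At an unadjusted p under 0.05 there were 6.

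Gm8369, which lies between Ms4a6c and Ms4a6b, had 5.17, 6.85 and 6.34 in the AID-/- arrays, against 2.89, 2.99 and 3.18 in the AID+/+ arrays. Every AID-/- array was above every AID+/+ array. It was higher by 3.10 (SE 0.37; limma adjusted p = 0.00112), a call that was kept with any single array left out. The AID+/+ values lay near the lower end of the scale, and whether its probes also bind Ms4a6b or Ms4a6c transcripts was not tested.

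AW112010, a gene between Ms4a18 and Ms4a8a, is known to be induced in immune cells. It had 9.05, 9.79 and 9.32 in the AID-/- arrays, against 8.28, 8.12 and 8.41 in the AID+/+ arrays. It was higher by 1.12 (SE 0.18; limma adjusted p = 0.00448). The other called neighbours lie outside the cluster. Ccdc86 was higher by 0.58 (SE 0.10; limma adjusted p = 0.00683). Mrpl16, a subunit of the mitochondrial ribosome, was higher by 0.36 (SE 0.09; limma adjusted p = 0.0238), a call lost without AID-/- replicate 2 or 3 and likewise without AID+/+ replicate 2 or 3 (adjusted p = 0.0699 to 0.0823).

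Other MS4A genes, together with their relatives Tmem176a and Tmem176b, were measured for 10 of 15 listed symbols. None of the 10 passed in the limma fit, and 2 had an unadjusted p under 0.05. The 8 with an Ms4a symbol were Ms4a3, Ms4a8a, Ms4a10, Ms4a13, Ms4a15, Ms4a18, Ms4a19 and Ms4a20, with differences of -0.38 to 0.08. Ms4a3, a cell cycle regulator of myeloid progenitors, had 3.68, 3.81 and 3.87 in the AID-/- arrays, against 3.73, 4.03 and 4.73 in the AID+/+ arrays. Ms4a15 had 6.33, 6.52 and 6.43 in the AID-/- arrays, against 6.27, 6.55 and 6.25 in the AID+/+ arrays. Ms4a18 was the single gene of the 8 whose groups did not overlap, lower by 0.23 on the log2 scale in AID-/- leukaemia (limma adjusted p = 0.140).

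Tmem176b had 6.96, 9.0 and 8.42 in the AID-/- arrays, against 6.68, 7.41 and 6.62 in the AID+/+ arrays. AID-/- replicates 2 and 3 were above all AID+/+ arrays, and replicate 1 lay among them. The difference of 1.22 (SE 0.47) did not pass (limma adjusted p = 0.123). Without AID-/- replicate 1 it was 1.81 and passed (adjusted p = 0.00414). At its brightest probe set Tmem176a had 5.61, 7.34 and 6.80 in the AID-/- arrays, against 5.91, 5.74 and 6.03 in the AID+/+ arrays. The difference of 0.69 did not pass (limma adjusted p = 0.270). Without AID-/- replicate 1 it was 1.17 (adjusted p = 0.00402). The other probe sets of Tmem176a, 1425603_at and 1441811_x_at, differed by 1.26 (SE 0.48) and 0.22 (SE 0.14), with overlapping groups.

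AID-/- replicate 1 was the lowest AID-/- array at all 4 member probe sets with groups apart. It was also the lowest AID-/- array for Gm8369, AW112010, Tmem176a and Tmem176b, but not for every gene called higher. Ccdc86 and the lysozyme gene Lyz2 were lowest in AID-/- replicate 3. How often replicate 1 was the lowest over all probe sets was not counted. Without AID-/- replicate 1, the difference of Ms4a6b at 1418826_at was 4.36 and that of Ms4a6c at 1457725_at was 2.96. These were the highest values with any single array left out. The lowest such values were 3.50 and 2.49.

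**Figure D3:**
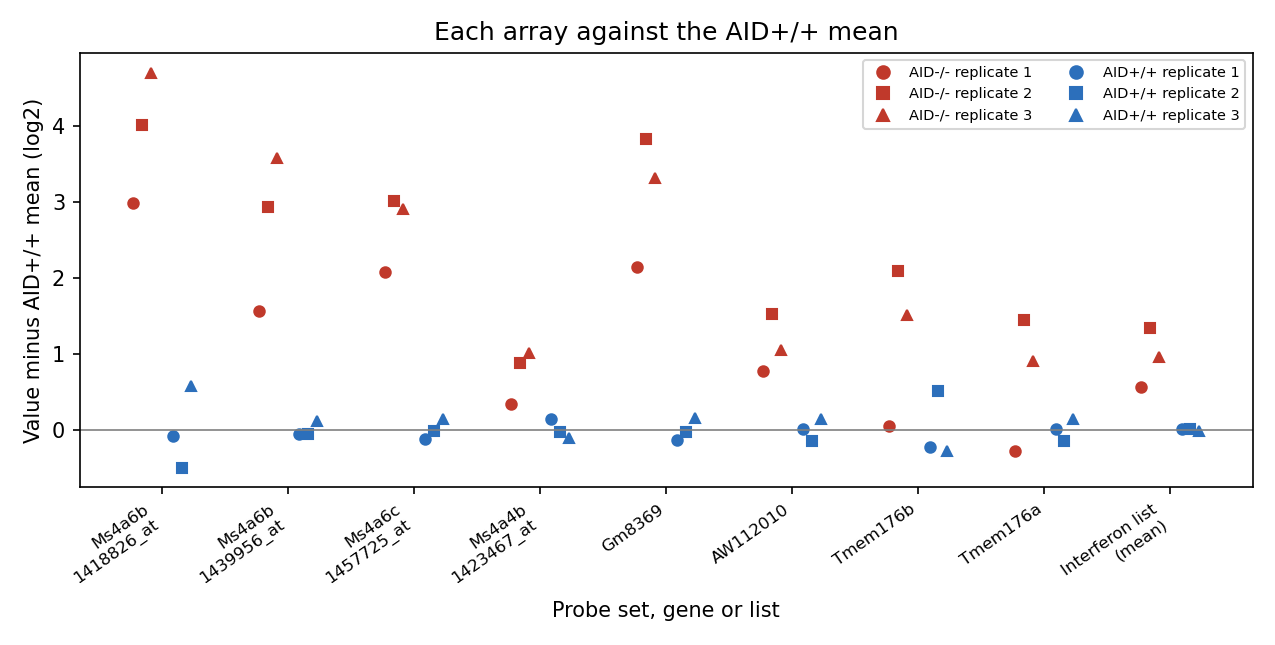
Each array's value minus the AID+/+ mean (log2, vertical axis) for the 4 member probe sets with groups apart, for Gm8369, AW112010, Tmem176b and Tmem176a, and for the mean of 28 interferon response genes. Red symbols at the left are AID-/- and blue symbols at the right AID+/+ replicates. AID-/- replicate 1, the red circle, is the lowest red symbol at every position.

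Interferon response genes, the genes induced by interferon signalling through STAT proteins, were measured for 28 of 33 listed symbols. Of these 14 were higher, 1 was lower and 13 did not pass, where 18.5% of all genes were called. Their mean level was 6.29, 7.06 and 6.68 in the AID-/- arrays, against 5.73, 5.73 and 5.70 in the AID+/+ arrays, with replicate 1 again the lowest of the AID-/- arrays. Gbp3 was higher by 1.96 (SE 0.12), Gbp2 by 2.50 (SE 0.23), Ifih1 by 1.56 (SE 0.17) and Ifit3 by 1.53 (SE 0.21), with limma adjusted p of 3.63e-05, 0.000330, 0.000860 and 0.00207. The lower member, Samd9l, was lower in every AID-/- array and fell by 0.54 (SE 0.10; limma adjusted p = 0.00963). Their part in the levels of the MS4A genes was not tested.

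The likeness of profiles was measured as the root mean square distance between the 6 array values, each centred on its own mean, over genes at their brightest probe set. For Ms4a6b at 1418826_at the closest were Zswim6, Ly6f and Tmem119, at distances of 0.293, 0.354 and 0.386 log2 units. For Ms4a6c at 1457725_at they were Gbp2, Slfn2 and Mgst2, at 0.114, 0.145 and 0.148. Gbp2 had 9.13, 9.96 and 9.91 in the AID-/- arrays, against 6.92, 7.17 and 7.42 in the AID+/+ arrays. For Ms4a4b at 1423467_at they were Gm34006, Magee1 and Flot2, at 0.0703, 0.0864 and 0.0919. With 6 arrays in 2 groups this measure follows mainly the size of the group difference.

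The leukaemia label was checked against defining markers. All 8 measured B-lineage markers were brighter than the median probe set, with a mean level of 11.74 to 11.92 in AID-/- and 11.65 to 11.84 in AID+/+ leukaemia. None passed in the limma fit, and 1 had an unadjusted p under 0.05; Ebf1 was called without AID-/- replicate 1 and Cd79b without replicate 2. Sex-linked genes also differed between the groups: Xist was at 3.34 to 3.50 in the AID-/- arrays and at 11.99 to 12.21 in the AID+/+ arrays at 1427262_at, and a difference by genotype cannot be told apart from a difference by sex in these samples.

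Markers of other cell types in which MS4A genes are known were examined as lists. Over all genes 18.5% were called, the share to set beside the calls of each list. Of 16 monocyte or macrophage markers 4 were brighter than the median probe set, and the mean level was 4.14 to 4.34 in AID-/- and 4.24 to 4.43 in AID+/+ leukaemia. Lyz2, which encodes lysozyme, was higher by 0.76 (SE 0.21), while the mannose receptor gene Mrc1 fell by 1.54 (SE 0.36) and the Fc receptor gene Fcgr1 fell by 1.28 (SE 0.32), with limma adjusted p of 0.0436, 0.0214 and 0.0266, and 13 did not pass. With 1 array left out, Lyz2 was kept only without AID-/- replicate 3, Fcgr1 only without AID-/- replicate 3 or AID+/+ replicate 2, while Mrc1 was kept whichever AID-/- array was left out and lost whichever AID+/+ array was. Fcgr1 was also lost with probe sets averaged (-0.79, adjusted p = 0.0566). Without AID-/- replicate 2, Itgam (higher by 1.44) and Adgre1 (lower, with a difference of -0.54) were called, at adjusted p of 0.0395 and 0.0420. The AID-/- arrays had 5.90, 6.46 and 5.69 of Lyz2, against 4.96, 5.33 and 5.49 in the AID+/+ arrays. Itgam encodes an integrin chain of myeloid cells. It had 4.03, 3.64 and 5.54 in the AID-/- arrays, against 3.58, 3.16 and 3.31 in the AID+/+ arrays. Every AID-/- array was above every AID+/+ array for Lyz2 and Itgam, and below every AID+/+ array for Mrc1, Fcgr1, Adgre1 and Csf1r. Over all probe sets, 14.2% stood apart with the AID-/- arrays higher and 18.7% with them lower. Csf1r, with a difference of -0.3 (SE 0.09), was called only with dim probe sets left out.

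Of 12 T cell markers, which include the chromosomal neighbours Cd5 and Cd6, 4 were brighter than the median probe set, with mean levels of 4.40 to 4.54 in AID-/- and 4.53 to 4.65 in AID+/+ leukaemia. Cd28, a co-stimulatory receptor, fell by 0.77 (SE 0.20; limma adjusted p = 0.0296) and 11 did not pass; the call was lost when AID-/- replicate 1 or 3 was left out, and when AID+/+ replicate 2 or 3 was. With probe sets of a gene averaged, Cd28 was not called (adjusted p = 0.0601) and the kinase gene Zap70 was lower, with a difference of -1.16 (adjusted p = 7.31e-05), against -0.18 (adjusted p = 0.206) at its brightest probe set. Cd3e, a chain of the T cell receptor complex, averaged 5.64 ± 0.15 over the AID-/- and 5.69 ± 0.06 over the AID+/+ arrays (SD, n = 3 each). Of 6 NK cell markers, Klrd1 fell by 0.87 (SE 0.15; limma adjusted p = 0.00532), and Nkg7 was also called without AID+/+ replicate 1. The mean level of the NK list was 3.81 to 4.02 in AID-/- and 4.10 to 4.35 in AID+/+ leukaemia. Beside the calls of both lists stands the 18.5% of all genes that were called.

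Of 11 mast cell or basophil markers and 7 neutrophil markers, 0 passed in the limma fit, where 18.5% of all genes were called. In each list 1 had an unadjusted p under 0.05. The mast cell list had a mean level of 3.88 to 3.96 in AID-/- and 3.93 to 4.11 in AID+/+ leukaemia, and the neutrophil list 3.84 to 3.93 in AID-/- and 3.93 to 4.16 in AID+/+ leukaemia. The part of other cells in the levels of the MS4A genes was not tested.

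**Figure D4:**
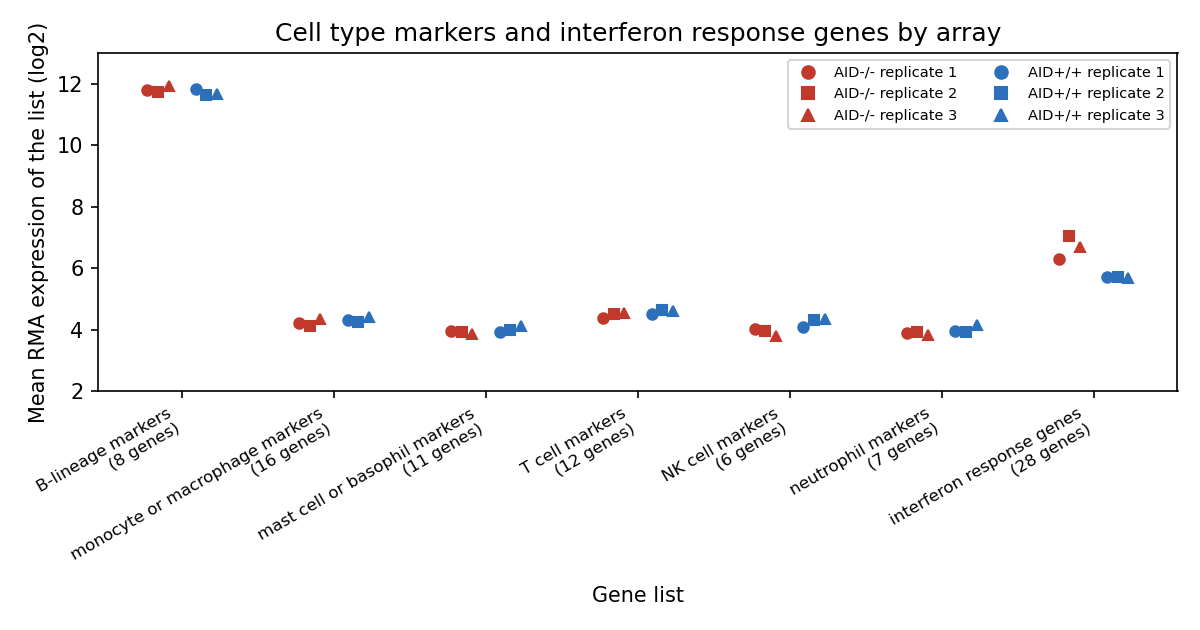
Mean RMA expression (log2, vertical axis) of 6 lists of cell type markers and of the interferon response genes in each array, with AID-/- in red at the left and AID+/+ in blue at the right. B-lineage markers lie near the top at 11.65 to 11.92 in both groups, lists of other cell types between 3.81 and 4.65, and the interferon list is higher in all 3 AID-/- arrays.

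Partners of Ms4a2 in signalling from the IgE receptor were measured for 10 of 11 listed genes. Lcp2, the adaptor SLP-76, had 7.90, 8.60 and 8.25 in the AID-/- arrays, against 5.49, 5.36 and 5.94 in the AID+/+ arrays. At this probe set, its brightest, it was higher by 2.65 (SE 0.21, limma adjusted p = 0.000133). Averaged over its probe sets, Lcp2 was higher by 1.72 (limma adjusted p = 0.000615). Lat, the membrane adaptor that works with it, had 6.03, 8.30 and 7.19 in the AID-/- arrays, against 9.41, 9.27 and 9.46 in the AID+/+ arrays, and fell by 2.21 (SE 0.48; limma adjusted p = 0.0149). The adaptor gene Gab2 fell by 0.45 (SE 0.11, limma adjusted p = 0.0244), and 7 did not pass, where 18.5% of all genes were called. Lat was not called without AID+/+ replicate 1 or 3, and Gab2 was kept with 1 array left out only without AID-/- replicate 2. Fcer1g, the gamma chain of the receptor, averaged 4.47 ± 0.13 over the AID-/- and 4.60 ± 0.11 over the AID+/+ arrays (SD, n = 3 each).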

How the data were processed

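Total RNA of 6 leukaemia samples was hybridised to Affymetrix 3' expression arrays after conversion to biotinylated cRNA, per the labels' protocols. The deposited values are log2 expression values normalised by the authors; RMA and Partek are named in the submitters' processing notes, without versions. The table held 45101 probe sets, and 64 of them were array controls and not used. Symbols came from the platform annotation, updated by Entrez identifier to RefSeq (GRCm38.p6) for 34741 of the 34945 probe sets with 1 symbol; 932 had several symbols and 9160 were not named. Array medians were 4.85 to 4.90, and the number of arrays limits the precision.

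Group differences (AID-/- minus AID+/+) were estimated by limma (version 3.58.1, under R 4.3.3) with group as the single term of a moderated linear model (two-sided, Benjamini-Hochberg adjustment over all 45037 probe sets or 18193 genes, threshold 0.05). SE is the moderated standard error with 3 arrays a group. The fit recovered seeded changes in simulated data with independent normal noise. Recovery by size of change is not given here. Such data hold no correlation between arrays, so nothing is read from them on the calls in the real arrays. Promoter windows were aligned with Biopython 1.88 (match 1, mismatch -1, gap opening -3, gap extension -0.5).

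The members, lists and motifs were chosen with earlier results of these data known. Named are all members, the other measured MS4A genes and up to 4 called genes of each list with the smallest p. Also named are the 3 genes nearest to each of 3 members. Further named genes (Fcer1a, Fcer1g, Cd3e, Samd9l, Ebf1, Cd79b, Cd24a, Nkg7, Itgam, Adgre1, Csf1r, Zap70 and Xist) were chosen after their values were seen.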

Additional observations from a re-analysis of the deposited data

How the results depend on the processing

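Quantile normalization, centring arrays on their medians, leaving out dim probe sets, an intensity trend, the replicate number as a block, averaging probe sets and leaving out each array were tried. All 147 alternative values of member probe set differences lay within 1 SD (pooled within groups) of the reported difference. For most of them this was fixed by construction. Leaving out 1 of 3 arrays cannot move a difference that far, and the block and the omission of dim probe sets leave it unchanged. Only quantile normalization and median centring could have moved it further. Member probe sets differing by at least 1 log2 unit numbered 2 with dim probe sets left out, by construction, and 3 under quantile normalization, median centring, the block and with any 1 array left out. Those with groups apart numbered 2 with dim probe sets left out, also by construction, and 4 to 7 with 1 array left out. Leaving out an array cannot lower the number of probe sets with groups apart. Csf1r left aside, named list genes had 429 alternative values. Of these, 389 stayed on their side of the threshold, 30 lost and 10 gained a call, and none was reversed. Over all probe sets, 6589 were called, 3250 at an adjusted p under 0.01 and 4307 to 6109 with 1 array left out; over genes, 3371 were called and 2142 to 3214 with 1 array left out, both lowest without AID+/+ replicate 3. Deviations of same-numbered replicates from their group means correlated at -0.045, -0.072 and 0.031, and no array correlated best with its own number in both directions, so the numbers were not taken as pairs. With the replicate block, 5369 probe sets and 2696 genes were called, and 1 of the other MS4A genes, Tmem176b (adjusted p = 0.0394), while Mrpl16 lost its call (adjusted p = 0.0758). Dim probe sets left out gave 0 T cell and 0 NK cell markers, and an intensity trend gave 1 B-lineage marker, Cd24a. With 1 array left out, calls numbered 0 to 1 for B-lineage, 0 to 3 for monocyte or macrophage, 0 to 0 for mast cell or basophil, 0 to 1 for T cell, 1 to 2 for NK cell and 0 to 0 for neutrophil markers, 0 to 2 for other MS4A genes, 1 to 3 for IgE receptor partners, 12 to 17 for interferon response genes and 3 to 5 for chromosomal neighbours. The causes were not tested.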
